A study of Mus musculus with 2 samples.

Results

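The 8 genes Fcgbp, Clca1, Tff3, Agr2, Spink4, Zg16, Spdef and Reg4 are goblet cell secretory genes. They were chosen by name from knowledge of the intestinal epithelium, with earlier results of these data known. The 8 genes were followed among the 32933 gene IDs listed over both libraries. Their UMIs (unique molecular identifiers, each standing for 1 captured RNA molecule) were read across the cell clusters that the submitters named at the mouse anorectal junction. The normal library has 4 such clusters, Rectum (63 cells), Anal Canal (432 cells), Basal (257 cells) and Suprabasal (187 cells). The wounded library has 6, Rectum (397 cells), Hybrid (316 cells), Basal (573 cells), Suprabasal (1032 cells), Regeneration (991 cells) and Wound_Stress (838 cells).

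Both conditions used K17CreERT2;R26RGFP mice of the strain labelled C57/BL6J, in which the Krt17 promoter drives a Cre that tamoxifen switches on. Tamoxifen was given in both conditions. The wound was made with hot EDTA followed by an electric brush near the anorectal junction, and wounded cells were collected 1 week later. Anorectal tissue of several mice was pooled, EpCam-positive cells negative for blood, myeloid, endothelial and fibroblast surface markers were sorted, and each condition became 1 library of the 10x 3' protocol. There is therefore no replicate of either condition, cells are not replicates, and no p-value is given. Any difference between the conditions cannot be told apart from a difference between the libraries or pools of mice.

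Goblet cells are the mucus-secreting cells of the intestinal epithelium, and they are abundant in the large bowel. They fold mucin and its partner proteins in the endoplasmic reticulum, store them in granules and release them as the mucus that covers the epithelium. Of the 8 genes, Fcgbp, Clca1 and Zg16 encode proteins of the secreted mucus, with Clca1 a protease and Zg16 a lectin that binds bacteria. Tff3 encodes a trefoil peptide that protects and repairs the epithelium, Agr2 a disulfide isomerase of the endoplasmic reticulum needed for mucin production, and Spink4 a Kazal-type inhibitor. Spdef encodes an ETS transcription factor of secretory cell maturation. Reg4 encodes a secreted C-type lectin found in secretory cells of the colonic crypt base and in some enteroendocrine cells.

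The promoter windows of Fcgbp and Agr2 are shown because Agr2 was found in most Rectum cells and Fcgbp, one of the genes with the higher level in wounded Rectum, in a minority. Each window is the 250 bases before the RefSeq start of the gene on GRCm38.p6, written in the direction of transcription, and capitals mark CAGCTG, an E-box of the kind that basic helix-loop-helix factors bind.
Fcgbp, chr7:28070986-28071235, plus strand: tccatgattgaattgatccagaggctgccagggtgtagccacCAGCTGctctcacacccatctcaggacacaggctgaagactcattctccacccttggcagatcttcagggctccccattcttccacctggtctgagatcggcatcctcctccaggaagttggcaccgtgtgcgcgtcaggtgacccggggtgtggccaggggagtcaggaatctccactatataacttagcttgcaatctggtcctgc
Agr2, chr12:35992675-35992924, plus strand: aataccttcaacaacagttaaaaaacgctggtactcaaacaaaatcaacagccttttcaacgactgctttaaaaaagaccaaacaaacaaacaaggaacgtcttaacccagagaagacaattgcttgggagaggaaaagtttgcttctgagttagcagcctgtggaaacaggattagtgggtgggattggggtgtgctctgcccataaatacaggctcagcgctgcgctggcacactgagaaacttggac
RefSeq windows were matched for 4 of the 8 genes, Fcgbp, Agr2, Spdef and Reg4. CAGCTG, which reads the same on both strands, occurs 1 time in the Fcgbp window, starting 208 bases before the start of the gene, and in 0 of the other 3 windows. It occurs in 13.0% of all 32851 windows of that length. CAGATG, searched on both strands, occurs in none of the 4 and in 14.4% of all windows. These matches describe letters only.

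The libraries differed in size, with 2564 barcodes and 17617944 UMIs in the normal and 17216 barcodes and 88260050 UMIs in the wounded library. In all, 1 barcode occurred in both libraries, and no barcode was a named cell in both. Median depth was 10885 UMIs in normal Rectum, 9991 in wounded Rectum, 2390 in Hybrid and between 8437.5 and 12616 in the other clusters. The cluster named Rectum was high in columnar genes, which is a description, as the clusters were formed from these same cells. All 8 columnar genes (Krt8, Krt18, Epcam, Cdh17, Muc13, Lgals4, Vil1 and Tspan8) were at least 4-fold higher there than in the other named cells of each library, and together they reached 10970 CPM (UMIs of the gene per 1000000 UMIs of the cells) in normal and 10113 CPM in wounded Rectum. The 8 stratified squamous genes summed to 200 CPM in normal and 801 CPM in wounded Rectum, against 16217 and 7811 CPM in the other named cells. Levels below are UMIs summed over the cells of a cluster, in CPM, with an exact Poisson interval at 95% in brackets, and log2 ratios of such sums carry an exact binomial interval. These intervals cover counting error only. UMIs of this protocol count molecule ends, so levels of different genes are set side by side without a correction for length. Positions of genes come from GENCODE M21 (build GRCm38).

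All 8 genes had their highest level in Rectum, in both libraries. Together they made up 9767 CPM of normal and 17396 CPM of wounded Rectum, 391 CPM of Hybrid and between 14.0 and 105 CPM of the 7 other clusters. Each of the 8 was at least 4-fold higher in Rectum than in the other named cells of its library. Of all genes tested, 6.55% were at least 4-fold higher in normal and 9.12% in wounded Rectum, and 6.16% and 7.89% at least 4-fold lower. The clusters were formed from the expression of these same cells, so this is a description of them. Within Rectum, Spink4 gave 46.6% of the UMIs of the 8 genes in the normal and 47.4% in the wounded library, and Agr2 gave 21.7% and 20.7%. Reg4 gave 16.3% and 8.22%.

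**Figure D1:**
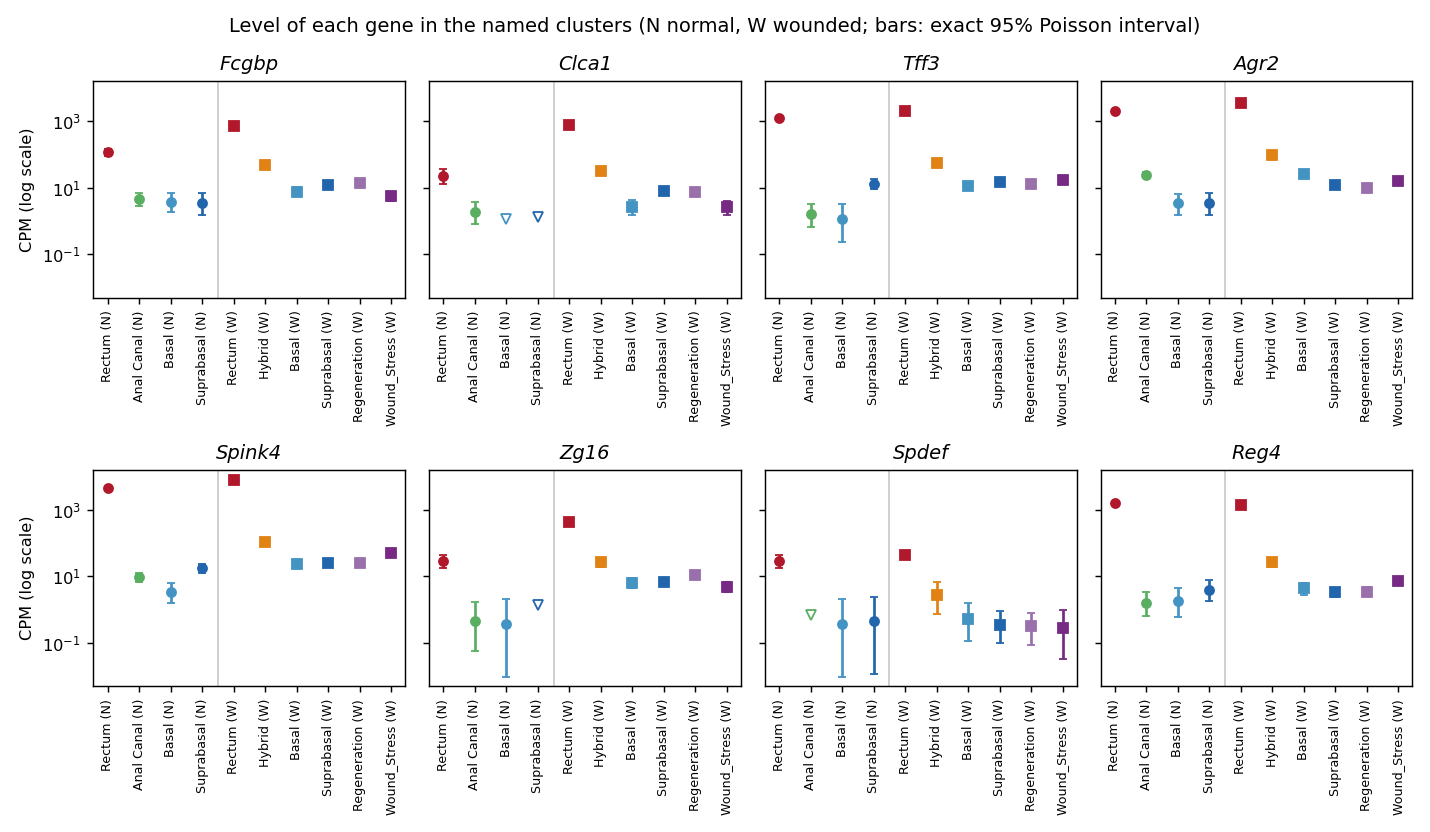
Level of each of the 8 genes (CPM, log scale) in the 4 normal (circles) and 6 wounded (squares) named clusters, with exact 95% Poisson intervals; open triangles stand for clusters with 0 UMIs, drawn at the level of 3 UMIs. In every panel Rectum lies highest within its own library, and Hybrid lies next among the wounded clusters, though for Spdef it rests on 4 UMIs. Across libraries this does not hold for Clca1, at 22.7 CPM in normal Rectum and 31.7 CPM in Hybrid. Zg16 is at 28.4 and 27.0 CPM there, with overlapping intervals.

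Spink4, the Kazal-type inhibitor (ENSMUSG00000028415, chromosome 4, 40920052 to 40931395, plus strand), was the most abundant of the 8 in UMIs. It reached 4554 CPM (4398 to 4715) in normal Rectum and 8252 CPM (8165 to 8340) in wounded Rectum, 105 CPM (89.3 to 123) in Hybrid and 52.0 CPM (47.0 to 57.4) in Wound_Stress. Wounded Suprabasal, Regeneration and Basal followed at 25.8, 25.2 and 23.5 CPM, with intervals that overlap. In the normal library it was at 17.5 CPM in Suprabasal, where 1 cell held 32 of the 40 UMIs, at 9.59 CPM in Anal Canal and at 3.33 CPM in Basal. The log2 ratio of Rectum over the other named cells was 8.87 (8.57 to 9.19) in the normal and 7.95 (7.87 to 8.04) in the wounded library.

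Agr2, the disulfide isomerase (ENSMUSG00000020581, chromosome 12, 35992907 to 36004087, plus strand), had 2120 CPM (2014 to 2230) in normal and 3596 CPM (3539 to 3655) in wounded Rectum. Hybrid was next at 95.1 CPM (80.0 to 112). In the normal library Anal Canal held 24.7 CPM (20.2 to 29.8), in 69 of 432 cells with at most 6 UMIs each, against 3.33 CPM (1.52 to 6.32) in normal Basal and 3.51 CPM (1.51 to 6.91) in normal Suprabasal. In the wounded library Basal was at 24.9 CPM (21 to 29.4), above Wound_Stress at 15.7, Suprabasal at 11.6 and Regeneration at 9.92 CPM. Rectum over the other named cells gave log2 ratios of 7.31 (7.05 to 7.59) and 7.73 (7.62 to 7.85).

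Tff3, the trefoil peptide (ENSMUSG00000024029, chromosome 17, 31125306 to 31129646, minus strand), reached 1302 CPM (1219 to 1389) in normal Rectum and 2092 CPM (2048 to 2137) in wounded Rectum. It was at 56.0 CPM (44.6 to 69.4) in Hybrid and between 11.3 and 17.0 CPM in the other wounded clusters. In normal Suprabasal it was at 13.1 CPM, with 29 of 30 UMIs in a single cell, and in Anal Canal and normal Basal at 1.60 and 1.11 CPM. The log2 ratios of Rectum over the other named cells were 8.25 (7.80 to 8.75) and 7.09 (6.97 to 7.21).

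Reg4, the C-type lectin (ENSMUSG00000027876, chromosome 3, 98222156 to 98236748, plus strand), had 1596 CPM (1504 to 1692) in normal and 1430 CPM (1394 to 1467) in wounded Rectum, and was the single gene of the 8 with the lower level in the wounded cluster. Hybrid held 27.0 CPM (19.3 to 36.7), with 14 of its 40 UMIs in 1 cell. Wound_Stress was at 7.10 CPM, where 1 cell held 27 of 53 UMIs, and all other clusters lay between 1.60 and 4.36 CPM. It had the highest ratios of Rectum over the other named cells, with log2 values of 9.48 (8.86 to 10.17) in the normal and 8.13 (7.92 to 8.34) in the wounded library, and in both its interval overlaps that of Spink4.

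The mucus protein genes Fcgbp, Clca1 and Zg16 were low in normal Rectum. Fcgbp (ENSMUSG00000047730) lies on chromosome 7, 28071236 to 28120862, plus strand, Clca1 (ENSMUSG00000028255) on chromosome 3, 145003817 to 145032776, minus strand, and Zg16 (ENSMUSG00000049350) on chromosome 7, 127050156 to 127087328, minus strand. Fcgbp was at 115 CPM (91.3 to 143) there and at 741 CPM (715 to 768) in wounded Rectum, Clca1 at 22.7 CPM (13.0 to 36.9) and 798 CPM (771 to 826), and Zg16 at 28.4 CPM (17.4 to 43.9) and 442 CPM (422 to 463). In Hybrid they were at 46.5, 31.7 and 27.0 CPM. In the other wounded clusters Fcgbp lay between 5.63 and 13.6 CPM, Clca1 between 2.55 and 7.69 CPM and Zg16 between 4.83 and 10.8 CPM.

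In the other normal clusters Fcgbp lay between 3.51 and 4.57 CPM, with overlapping intervals. Clca1 had 8 UMIs in Anal Canal, all in 1 cell, and 0 UMIs in normal Basal and Suprabasal, where 3 UMIs would have been 1.11 and 1.31 CPM. Zg16 had 2 UMIs in Anal Canal, 1 in normal Basal and 0 in normal Suprabasal. The log2 ratios of Rectum over the other named cells in the normal and wounded library were 4.83 and 5.96 for Fcgbp, 4.73 and 6.87 for Clca1, and 6.47 and 5.71 for Zg16.

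Spdef, the transcription factor (ENSMUSG00000024215, chromosome 17, 27714352 to 27728955, minus strand), was the lowest of the 8 in wounded Rectum. It was at 28.4 CPM (17.4 to 43.9, 20 UMIs) in normal and 44.3 CPM (38.1 to 51.2, 182 UMIs) in wounded Rectum. Outside Rectum its UMIs numbered 2 in 876 normal and 17 in 3750 wounded cells. In Anal Canal it had 0 UMIs, where 3 would have been 0.685 CPM. The log2 ratios were 7.06 (5.01 to 10.20) and 6.68 (5.96 to 7.49), the wide intervals following from the few UMIs.

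The levels came from unequal numbers of cells. In wounded Rectum, the cells with the most UMIs that together held 50% of a gene's UMIs were 36 for Agr2, 31 for Spink4, 26 each for Reg4 and Spdef, 18 for Tff3, 15 for Fcgbp, 6 for Clca1 and 2 for Zg16. A single wounded cell carried 844 of the 1817 Zg16 UMIs, and another 501 of the 3279 Clca1 UMIs. In normal Rectum the 16 Clca1 UMIs came from 3 cells. The 20 Zg16 UMIs came from 4 cells, 1 of which held 17. Zg16 and Clca1 thus described a few cells of the cluster, while Agr2 had UMIs in 58 of 63 normal and 325 of 397 wounded Rectum cells.

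To compare how widely the genes were found, cells were brought by random draws to an equal 2000 UMIs (thinned), which left out 3 of 63 normal and 43 of 397 wounded Rectum cells. Agr2 then had a UMI in 76.7% (64.0 to 86.6, exact Clopper-Pearson interval) of normal and 79.9% (75.4 to 84.0) of wounded Rectum cells. Spink4 was found in 31.7% and 55.9%, Reg4 in 26.7% and 41.0%, Tff3 in 20% and 36.4%, and Fcgbp in 16.7% and 26.6%. Clca1 was found in 5% and 11.3%, Spdef in 5% and 6.78%, and Zg16 in 5% and 4.80%. The intervals of the 2 libraries overlapped for 7 of the 8 genes. For Spink4, 20.3 to 45.0 in the normal and 50.6 to 61.2 in the wounded cluster, they did not. Cells are not replicates, so these intervals give no test of a difference between the conditions. The share of all genes whose intervals fail to overlap was not taken.

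Without thinning the shares in normal and wounded Rectum were 92.1% and 81.9% for Agr2, 34.9% and 69.3% for Spink4, 33.3% and 48.6% for Reg4, 31.7% and 48.9% for Tff3, and 30.2% and 40.1% for Fcgbp. They were 15.9% and 23.9% for Spdef, 6.35% and 11.8% for Zg16, and 4.76% and 19.4% for Clca1. Shares in stratified cells were set beside these, and whether they are background was not tested. Thinned, Spink4 was found in 8.56% of Wound_Stress cells, and Agr2 in 5.85% of wounded Basal and 5.29% of Anal Canal cells. In wounded Suprabasal, at a median of 10594 UMIs, a UMI of Spink4 was found in 24.3% of cells before and 6.57% after thinning, of Tff3 in 12.2% and 2.65%, of Agr2 in 11.5% and 2.55%, and of Fcgbp in 6.69% and 2.45%. In normal Basal, at 9971 UMIs, thinned shares were at most 1.57%, and 0 of 255 cells had a UMI of Clca1, Zg16 or Spdef, so that up to 1.44% remains possible. In both Rectum clusters the thinned shares of all 8 genes lay above those of these stratified clusters, by least for Zg16 in the wounded library, at 4.80% (2.82 to 7.58) in Rectum against 1.57% in Suprabasal. In Hybrid, at a median of 2390 UMIs, the thinned Zg16 share was 8.15% (4.63 to 13.1, 15 of 184 cells), with an interval that overlaps that of wounded Rectum, while its CPM was lower there.

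Several of the genes were often present in the same cell. After thinning, 17 of 60 normal (28.3%, 17.5 to 41.4) and 167 of 354 wounded Rectum cells (47.2%, 41.9 to 52.5) had a UMI of at least 3 of the 8 genes, and 6 (10.0%, 3.76 to 20.5) and 80 (22.6%, 18.3 to 27.3) had at least 5. Exactly 1 gene was found in 48.3% of normal and 26.6% of wounded Rectum cells, and none in 18.3% and 13.6%. Outside Rectum, at least 3 genes were found in 8 of 184 Hybrid cells (4.35%), 5 of 986 Regeneration cells (0.507%), 2 of 1020 wounded Suprabasal cells (0.196%), 1 of 818 Wound_Stress cells (0.122%) and 0 of 564 wounded Basal cells, so that up to 0.652% remains possible. In the normal library the count was 1 of 183 Suprabasal cells and 0 in Anal Canal and Basal.

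**Figure D2:**
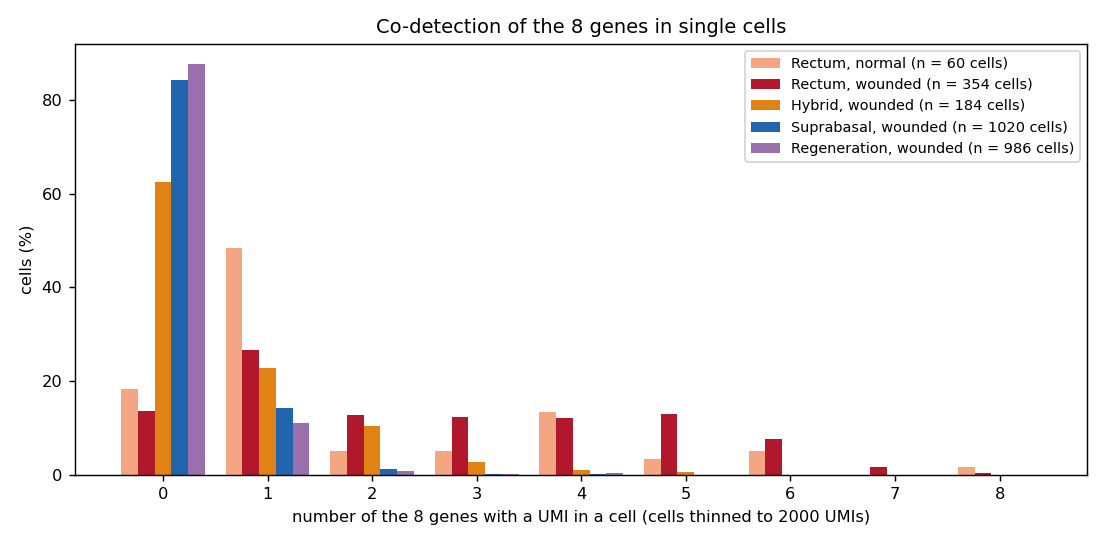
Share of cells (%) by the number of the 8 genes with a UMI, in cells thinned to 2000 UMIs, for 5 clusters given by colour. In wounded Rectum 47.2% of 354 cells and in normal Rectum 28.3% of 60 cells reach 3 genes or more, while most Suprabasal and Regeneration cells are at 0.

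The closest pair over single Rectum cells was Spink4 and Reg4. In the wounded cluster 136 of the 145 cells with Reg4 also had Spink4, where the product of the separate shares would give 81.1 cells, and the Pearson correlation of log2(CPM + 1) over 354 thinned cells was 0.74. In the normal cluster 15 of 16 cells with Reg4 had Spink4, with a correlation of 0.86 over 60 cells. Reg4 cells were also nearly always Agr2 cells, 142 of 145 in the wounded and 16 of 16 in the normal cluster. As Agr2 was found in most Rectum cells, the product of the separate shares would already give 116 and 12.3 cells.

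Fcgbp, Clca1 and Tff3 were often found together, and often with Spink4. In wounded Rectum 35 of 40 cells with Clca1 had Fcgbp, 37 had Tff3 and 36 had Spink4, and the correlations were 0.60 for Fcgbp with Clca1, 0.60 for Fcgbp with Tff3 and 0.50 for Clca1 with Tff3. With Spink4 the values were 0.65 for Tff3, 0.55 for Fcgbp and 0.33 for Clca1. In normal Rectum they were 0.62, 0.64 and 0.35 with Spink4, beside 0.57 for Fcgbp with Clca1, 0.51 for Fcgbp with Tff3 and 0.49 for Clca1 with Tff3, so these genes did not form a group apart from Spink4. Zg16 had its highest correlation in the wounded cluster with Clca1. Of 17 wounded cells with Zg16, 10 had Clca1 and 10 had Fcgbp, 9 had Spink4 and 4 had Reg4, and its correlation was 0.42 with Clca1, 0.04 with Spink4 and -0.09 with Reg4. In normal Rectum it was 0.42, 0.20 and 0.20. Correlations this close to 0 in sparse counts are no finding, and Zg16 rests on 17 wounded and 3 normal thinned cells. Spdef, found in 24 wounded cells, had Agr2 in all 24, Spink4 in 23, Tff3 in 21 and Reg4 in 20. The product of the separate shares would give 19.2, 13.4, 8.75 and 9.83 cells. These values share library, depth and cells.

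**Figure D3:**
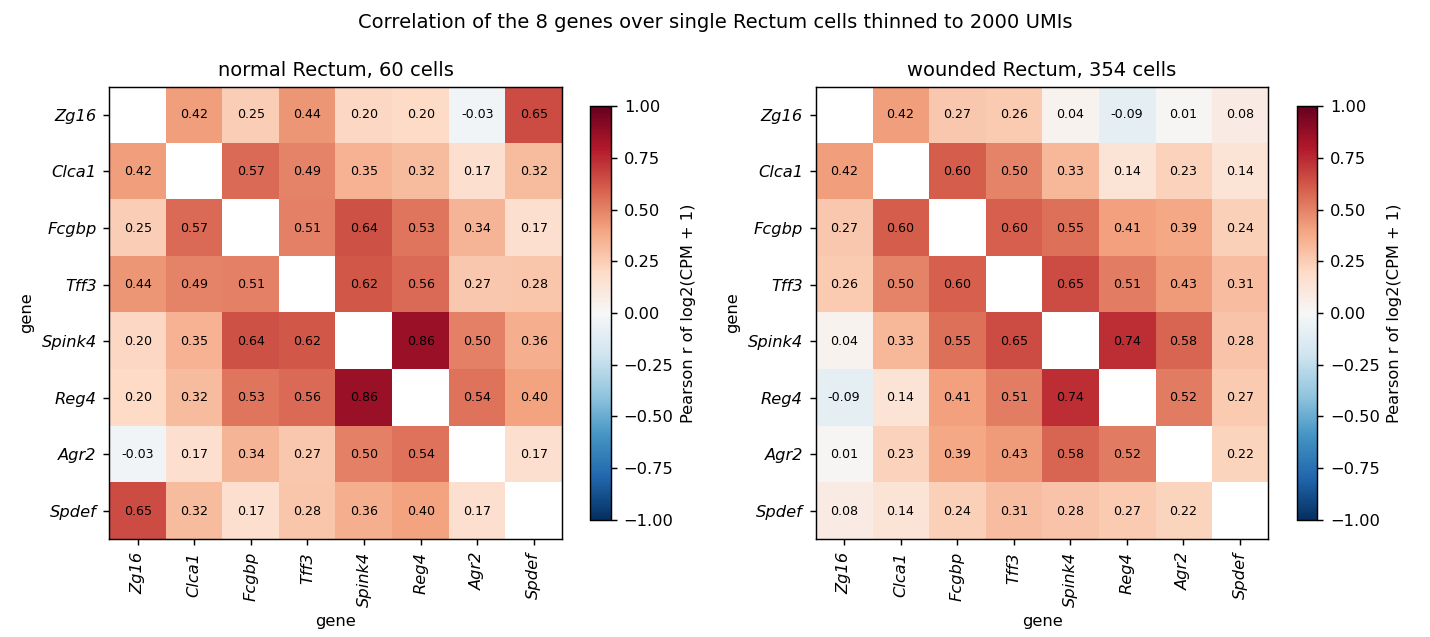
Pearson correlation of log2(CPM + 1) for each pair of the 8 genes over normal (60) and wounded (354) Rectum cells thinned to 2000 UMIs. Spink4 and Reg4 form the pair with the highest value in both panels, at 0.86 and 0.74, and Zg16 with Reg4 the lowest in the wounded panel, at -0.09.

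Split by these genes, wounded Rectum cells fell into 38 with Clca1 or Zg16 and also Spink4 or Reg4, 169 with Spink4 or Reg4 alone, 9 with Clca1 or Zg16 alone and 138 with none of the 4. In the normal cluster the numbers were 4, 16, 1 and 39. Measured on all their UMIs, the 38 wounded cells held Fcgbp at 4126 CPM, Tff3 at 10117 CPM and Agr2 at 12250 CPM. The 169 cells held the same genes at 426, 2011 and 4419 CPM. Reg4 was at 2553 CPM in the first and 2822 CPM in the second group. The 138 cells with none of the 4 still had 731 CPM of Agr2, beside 19.8 CPM of Tff3 and 10.2 CPM of Fcgbp. The 12 colonocyte genes summed to 5254 CPM in the 38 cells, 3005 CPM in the 169 and 5300 CPM in the 138 cells.

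Reg4 is also known from enteroendocrine cells. Of the enteroendocrine list, only Chga, Chgb and Neurod1 were counted cell by cell. In wounded Rectum 2 thinned cells had a UMI of these, and 1 of them was among the 145 cells with Reg4. In normal Rectum it was 0 of 16, with 1 such cell in the cluster. The full list of 10 enteroendocrine genes had 174 UMIs in wounded and 69 in normal Rectum, and its overlap with Reg4 was not tested.

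Between the conditions, Clca1, Zg16 and Fcgbp were higher in wounded than in normal Rectum, and the other 5 genes differed by less than 2-fold in the summed UMIs. Clca1 had a log2 ratio of 5.13 (4.43 to 5.94), Zg16 of 3.96 (3.33 to 4.67) and Fcgbp of 2.69 (2.37 to 3.02). Spink4 was at 0.86 (0.81 to 0.91), Agr2 at 0.76 (0.69 to 0.84), Tff3 at 0.68 (0.59 to 0.78), Spdef at 0.64 (-0.03 to 1.39) and Reg4 at -0.16 (-0.25 to -0.07). By summed UMIs of all Rectum cells, 3 of 8 were at least 2-fold higher, where 11.6% of all 10197 genes tested were, and 0 were at least 2-fold lower, where 6.41% of all genes were. The median log2 ratio was 0.81 over the 8 genes and 0.02 over all genes tested.

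The size of these ratios depended on a few cells and on which barcodes were counted. As a mean over cells of the CPM of each cell, the ratios were 3.72 for Clca1, 2.64 for Zg16 and 2.18 for Fcgbp, and in thinned cells 3.30, 1.92 and 1.58. Without the cell with the most UMIs of the gene in each library, they were 5.90, 5.80 and 3.15. In normal Rectum that cell held 17 of 20 Zg16 and 8 of 16 Clca1 UMIs, so these 2 values rest on very few UMIs. Spink4, at 1.05, was then at least 2-fold higher too, so that 4 genes were, with Tff3 at 0.94. The share of all genes at 2-fold was not taken for this setting. Scaled without mitochondrial UMIs, the ratios of Clca1, Zg16 and Fcgbp were 5.19, 4.02 and 2.74. Unnamed barcodes rich in columnar genes numbered 256 in the normal and 4490 in the wounded library, with median mitochondrial shares of 71.1% and 60.2%. Adding them, scaled in the same way, brought the ratios to 3.17, 0.51 and 1.28, so that Zg16 no longer differed by 2-fold. Tff3 was then at -0.18 and Reg4 at -0.79. The part of cell selection in the difference was not tested.

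**Figure D4:**
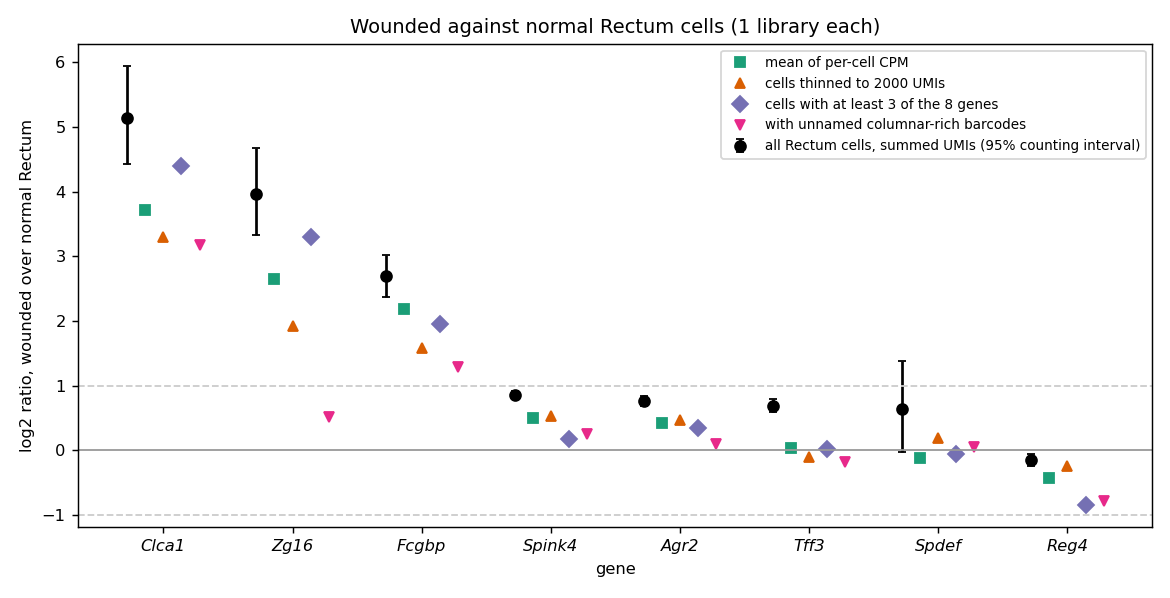
Log2 ratio of each gene in wounded over normal Rectum, from all Rectum cells (black, with 95% counting interval) and under 4 other ways of counting (coloured symbols); the dashed lines mark 2-fold. Clca1 and Fcgbp lie above 2-fold throughout, Zg16 falls to 0.51 with the unnamed barcodes, and the other 5 genes lie between -0.85 and 0.86. Values with the unnamed barcodes are scaled without mitochondrial UMIs.

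Other goblet cell genes were compared by summed UMIs of all Rectum cells only. Of 19 listed, 14 had enough UMIs (20 over both clusters). Of these, 9 were at least 2-fold higher and 0 lower in wounded Rectum, where 11.6% and 6.41% of all genes tested were. Their median log2 ratio was 1.25, which counts Ang4 at its bound. The list was chosen with earlier results of these data known, and its ratios were not taken under the other ways of counting. Muc2, the gel-forming mucin, was at 195 CPM in normal and 1067 CPM in wounded Rectum, a log2 ratio of 2.46 (2.21 to 2.71), and Retnlb, a resistin-like antibacterial protein, at 378 and 1304 CPM (1.79, 1.61 to 1.97). Klk1, a kallikrein, was at 589 and 1198 CPM (1.02, 0.88 to 1.17). Galnt12 and Creb3l1, among the most abundant of the list too, were at 0.92 and -0.08. Sytl2 was at 2.48, Ern2, the stress sensor of goblet cells, at 0.40, and Bcas1 at 1.45. Ang4, an angiogenin-type antibacterial protein, had 344 UMIs in wounded and 0 in normal Rectum, a log2 ratio of at least 4.30 against 3 UMIs. The transcription factors Atoh1 and Foxa3 were at 0.29 and 1.04.

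Of the 12 genes of the secretory endoplasmic reticulum, 0 were at least 2-fold higher or lower, and their median log2 ratio was 0.27. With 11.6% of all genes tested higher and 6.41% lower, a count of 0 among 12 is near these shares. Ssr4 was at 0.23, Sec61b at -0.26, Hspa5, the main chaperone of that compartment, at 0.82, Pdia6 at 0.67 and Kdelr2 at -0.01. Of the 8 columnar genes 0 differed by 2-fold, with Lgals4 at -0.23, Krt8 at -0.20, Epcam at 0.05 and Krt18 at 0.68. Of 11 colonocyte genes 6 were at least 2-fold lower in wounded Rectum, with Guca2a at -1.09 and Car1 at -1.43, while the 2 others with most UMIs were Lypd8 at -0.15 and Krt20 at -0.40.

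Genes of other cell types were also higher in wounded Rectum. Of the stratified squamous list 6 of 8 were at least 2-fold higher (summed level 200 CPM in normal, 801 CPM in wounded Rectum; Krt14 1.84, Krt1 4.16, Krt10 1.73 and Krt5 1.45), and so were 3 of 3 fibroblast genes, which summed to 1.42 and 134 CPM over the list of 4. For 2 of the 3, Col1a1 and Col1a2, normal Rectum had 0 UMIs. The part of these in the goblet gene ratios was not tested. In wounded cells named neither Rectum nor Hybrid, which hold the stratified cells, the 8 genes were at 0.344 to 30.4 CPM. Doublets were gated out at the sort, before the libraries were made, and no doublet caller was run here. Without the 10% of Rectum cells with the most UMIs the ratios were 5.03 for Clca1, 3.97 for Zg16 and 2.63 for Fcgbp. The part of doublets in the ratios was not tested.

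The wounded cluster named Hybrid held low levels of all the genes. Against the 3434 wounded cells named neither Hybrid nor Rectum, the log2 ratio was highest for Agr2 at 2.78 (2.50 to 3.05) and Reg4 at 2.66 (2.12 to 3.17). It was 2.44 for Clca1, 2.14 for Fcgbp, 2.02 for Tff3, 1.81 for Zg16 and 1.79 (1.54 to 2.03) for Spink4. Thus 7 of 7 genes with 20 or more UMIs were at least 2-fold higher, where 19.2% of all genes tested were, 0 were 2-fold lower, where 6.62% of all genes were, and Spdef had 4 and 13 UMIs. No Hybrid cell held more than 14 UMIs of any of the 8 genes, against up to 1476 of Spink4 in a wounded Rectum cell.

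Hybrid was also a shallow cluster rich in hormone cell genes. Its median depth of 2390 UMIs compares with 10610 UMIs in the cells it was set against, and its 10 enteroendocrine genes summed to 21239 CPM. In the 145 Hybrid cells with at least 2000 UMIs and no UMI of Chga, Chgb or Neurod1, 3 of the 7 genes stayed at least 2-fold higher, Agr2 at 1.04, Spink4 at 1.01 and Zg16 at 1.14. Tff3 was then at 0.82, Fcgbp at 0.49, Clca1 at 0.12 and Reg4 at -0.01. Spdef, with at most 4 UMIs in Hybrid, was at 3.2. The 3434 cells of the comparison were not filtered in this way. The share of all genes at 2-fold was not taken for these 145 cells. Columnar genes were higher in Hybrid as well, 7 of 8 by at least 2-fold, and their part and that of free RNA in shallow barcodes were not tested.

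Outside Rectum, cells with many UMIs of the 8 genes were few. At least 20 UMIs of the set were found in 1 of 876 normal and 14 of 3750 wounded cells, which were 5 Hybrid, 5 Regeneration, 3 Suprabasal and 1 Wound_Stress cell. The 8 cells of Suprabasal and Regeneration held Fcgbp, Clca1, Zg16 and Tff3, the last with 1 to 12 UMIs in a cell, and few UMIs of Spink4, Agr2 and Reg4. A Regeneration cell had 36 UMIs of Fcgbp, 36 of Zg16, 13 of Clca1, 12 of Tff3 and 25 of Muc2 beside 4 of Spink4 and 2 of Agr2. A Suprabasal cell had 26 of Fcgbp, 22 of Clca1, 8 of Tff3 and 31 of Muc2 beside 1 of Spink4 and 1 of Agr2, together with 197 UMIs of the squamous list. None of the 8 cells had more than 4 UMIs of Spink4, 2 of Agr2 or 1 of Reg4.

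The Wound_Stress cell and the normal Suprabasal cell held mostly Spink4 and Tff3. The Wound_Stress cell had 147 UMIs of Spink4, 48 of Tff3, 27 of Reg4 and 22 of Agr2 beside 4 of Fcgbp and 0 of Clca1 and Zg16. The Suprabasal cell had 32 of Spink4 and 29 of Tff3 beside 2 of Fcgbp. In the 3434 wounded cells named neither Hybrid nor Rectum, Spink4 gave 35.1% of the UMIs of the 8 genes, Fcgbp 12.2%, Zg16 8.88% and Clca1 6.71%. In wounded Rectum the shares were 47.4%, 4.26%, 2.54% and 4.59%. In wounded barcodes without a cluster name that fail the filters they were 38.3%, 11.2%, 7.56% and 6.98%. The 3434 cells include the wounded Suprabasal, Regeneration and Wound_Stress cells described above. Shares without those cells were not taken, and whether stratified cells have a mix of their own was not tested.

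Genes outside the set also followed it over single cells, and 3 of the closest 10 (Klk1, Muc2 and Retnlb) were on the list of other goblet cell genes. Among 4806 genes with at least 100 UMIs in wounded Rectum, the highest Pearson correlations with the 8 genes together, over 354 thinned cells, were those of Sval1 (0.64), Ccl6 (0.60), Mptx1 (0.59), Ramp1 (0.57), Klk1 (0.56), Muc2 (0.55), Hsd11b2 (0.53), Clps (0.49), Hepacam2 (0.46) and Retnlb (0.46). In the 60 normal Rectum cells the same genes were between 0.31 (Klk1) and 0.63 (Ramp1). Over the 10 clusters, among 863 genes with at least 100 UMIs in each Rectum cluster, the closest were Retnlb (0.99), Sval1 (0.99), Pla2g10, Ccl6, Mptx1, Phgr1, Pigr, Stard10, Kcne3 and Sycn (0.98). Sval1, Ccl6, Mptx1 and Retnlb stood in both sets of 10. Of these 10 points, the 2 Rectum clusters lie far above the rest. Ccl6 is a chemokine, Pigr the receptor that carries IgA into the lumen, and Mptx1 a pentraxin with a close copy in the genome, which may share reads.

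Set against the fixed lists, the 8 genes together followed the other goblet cell genes within wounded Rectum, at a correlation of 0.63 over 354 cells, and 0.37 over 60 normal cells. With the secretory reticulum list the values were 0.27 and 0.44. With the colonocyte list they were -0.01 and -0.05 and with the columnar list 0.00 and -0.09. By gene, Spink4 followed the other goblet genes most, at 0.70 in wounded and 0.60 in normal Rectum, and Zg16 least, at 0.16 and 0.10. Agr2 had the highest value with the secretory reticulum list, at 0.38 and 0.42.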

How the data were processed

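Single cells of the anorectal junction were sequenced as 1 normal and 1 wounded library. UMI counts of barcodes and genes, made with Cell Ranger on mm10 and unnormalized, are what the authors deposited. The file headers name version 3.1.0 for the normal and 4.0.0 for the wounded library, where the submitters' processing notes name Cell Ranger 3.1.0 and Seurat 3.2.2. The authors kept cells that passed their filters and then took out anal gland, hair follicle and fibroblast cells, which left 939 and 4147. For each kept cell they deposited a cluster name and natural log values, ln(n + 1) with n whole. How n was made is not given in the sources used here. A further 610 normal and 1078 wounded barcodes passed the filters as applied here but carry no name. The names were taken from these tables and the levels from the counts, and 1 alternative turned the deposited log values back. Clca1 was not analysed in the normal table of log values.

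Here UMIs were summed per cluster (CPM). Ratios were taken for genes with at least 20 UMIs over both groups, against 3 UMIs where a group had 0, and counted from 4-fold (Rectum against other cells) or 2-fold. Cells were thinned to 2000 UMIs, without replacement, for shares and correlations. No test was made, as each condition has 1 library. Barcodes were called failing outside 200 to 5000 detected genes or at 25% mitochondrial UMIs or more. The 8 genes and the gene lists (columnar, other goblet, secretory reticulum, colonocyte, crypt base and cycling, enteroendocrine, tuft, squamous, anal gland, hair follicle, fibroblast, immune, endothelial) were chosen with earlier results of these data known. Named besides the 8 were up to 4 genes of a list (8 of other goblet genes) with the most UMIs in Rectum and the 10 genes most alike over cells and over clusters. Kdelr2, Ang4, Atoh1, Foxa3, Col1a1 and Col1a2 were chosen after their values were seen. The counts over the remaining lists were as follows in wounded over normal Rectum: crypt base and cycling 1 of 8 higher, enteroendocrine 2 of 4 higher and 2 lower, anal gland 1 of 4 higher, hair follicle 0 of 1, immune 1 of 1 higher, and no tuft or endothelial gene had enough UMIs. Gene IDs follow GENCODE M21 (GRCm38), and promoter windows RefSeq (GRCm38.p6). Alternatives were the mean of per-cell CPM, other depths, seeds and minimums, scaling without mitochondrial UMIs or to shared gene IDs, the deposited log values, and cell subsets. Scripts used Python 3.11.15 with numpy 2.4.6, scipy 1.17.1, pandas 2.3.3 and matplotlib 3.10.9, and the ratio and thinning were tested on simulated data.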

Additional observations from a re-analysis of the deposited data

Results flagged for a closer look

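Apart from the setting that added unnamed columnar-rich barcodes, no ratio between groups of cells used barcodes without a cluster name that fail the filters. Such failing barcodes, by detected genes or mitochondrial share, held the 8 genes. They numbered 1015 in the normal and 11991 in the wounded library, with a median mitochondrial share of 75.3% and 60.0%. The 8 genes together were at 909.9 CPM there in the normal library, against 35.0 CPM in the named cells other than Rectum and 9767 CPM in Rectum. In the wounded library they were at 1262 CPM, against 98.3 and 17396 CPM. In the normal library Fcgbp was at 118 CPM (102 to 136), Clca1 at 57.1 CPM (45.9 to 70.3) and Zg16 at 157 CPM (138 to 178) in these barcodes, where Rectum held 115, 22.7 and 28.4 CPM. Spink4 was at 134 CPM and Reg4 at 31.5 CPM there, far under their Rectum levels. The normal failing barcodes with at least 10 UMIs of the gene numbered 4 for Zg16, 3 for Fcgbp and 2 for Clca1, and all of them failed by mitochondrial share. In the wounded library such failing barcodes numbered 33 for Zg16, 112 for Fcgbp and 66 for Clca1, where Rectum had 10, 65 and 38. The levels in all wounded failing barcodes were 95.4, 142 and 88.0 CPM, below those of wounded Rectum. All these levels are scaled to all UMIs, mitochondrial ones included. The median mitochondrial share was 9.26% in normal and 12.9% in wounded Rectum, far under that of the failing barcodes. Levels scaled without mitochondrial UMIs were not taken for the failing barcodes.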

How the results depend on the processing

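With 1 library per condition no replicate could be left out. No paired analysis was possible because each condition has 1 library. In Rectum over other named cells 8 of 8 genes stayed at least 4-fold higher under every alternative, and 7 of 7 in the normal table of log values, which gave no value for Clca1. In Hybrid, 8 of 8 genes were at least 2-fold higher with no minimum on UMIs. In the Hybrid cells with at least 2000 UMIs and no UMI of Chga, Chgb or Neurod1, 4 were, Spdef included. The share of all genes at 2-fold was not taken for either setting. The share of wounded Rectum cells with at least 3 genes, 47.2%, was 38.3% at 1000 UMIs, 59.4% without thinning and 38.7% when detection needed 2 UMIs. Of 198 values of single genes under an alternative, 101 moved by less than their counting interval, 91 moved further and 6 changed sign. In wounded over normal Rectum these were Spdef at -0.13 by the mean of per-cell CPM and -0.0636 in cells with at least 3 genes, Tff3 at -0.10 in thinned cells and -0.18 with the unnamed columnar-rich barcodes, and Reg4 at 0.0594 without its top cell. In the same Hybrid cells Reg4 was at -0.0107. The cause was not tested. Thinned values of Zg16, Clca1 and Spdef rest on 3 normal cells each, and counting error is the only error covered. The comparisons without the top cell, with unnamed barcodes and without UMIs of Chga, Chgb or Neurod1 were chosen after seeing the data.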
